A study of Mus musculus with 2 samples.

Results

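The genes described here sense oxygen or answer to its lack: Hif1a, Epas1, Arnt, Egln1, Egln2, Egln3, Vhl, Hif1an, Vegfa and Ankrd37. They were matched by symbol through their Ensembl gene identifiers, and all 10 of the 10 names were found among the 43346 genes listed for each library. The same identifiers pointed to 44 annotated transcripts, of which 28 held a count in at least 1 of the 2 libraries. The members are defined by name, not by a threshold on a measured value.

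Polyadenylated RNA was sequenced from G1E-ER4 cells, an immortalized male mouse erythroid line. The line lacks a working Gata1 gene and carries GATA1, the master transcription factor of red cell development, fused to the ligand-binding part of the estrogen receptor, which makes its activity depend on added estradiol. All cells had been given 10 nM 17β-estradiol for 3 h, and the single group holds 2 libraries labelled as biological replicates 1 and 2. Both carry the same line, the same fusion protein and the same treatment, and no untreated library was analysed here, so no value below measures the effect of estradiol. The line is 1 clone and both libraries cite the same source record, so whether their difference is biological or technical cannot be told apart.

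In oxygenated cells the EGLN enzymes (prolyl hydroxylases) use molecular oxygen to hydroxylate 2 prolines of the HIF alpha subunits, and the VHL protein then recognises the hydroxylated subunit and directs its destruction. HIF1AN, also called factor inhibiting HIF, hydroxylates an asparagine near the end of the alpha subunit and so blocks its contact with coactivators. When oxygen is short, HIF alpha persists, pairs with ARNT and switches on genes for glycolysis, vessel growth and oxygen delivery. In the body the pathway is best known in the red cell lineage for setting the level of erythropoietin. Much of this control acts on proteins, and the tables analysed here measure RNA only.

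The libraries held 31126956 (replicate 1) and 57853617 (replicate 2) expected counts, which are read numbers that need not be whole because the authors divided ambiguous reads among transcripts. Levels are given as TPM, a relative transcript abundance that corrects for transcript length and sums to the same total in each library. A zero was set against the level that 3 counts would give in the same library. All 14 erythroid markers were at 1 TPM or more in both libraries, with summed levels of 6519 and 20215 TPM. They include Gata1 (190 and 799 TPM), whose reads may come from the introduced fusion, which was not tested. None of the 10 granulocyte and monocyte markers reached 1 TPM in both libraries (sums 1.36 and 0.33 TPM, with Lyz2, S100a8, S100a9 and Itgam at 0), and none of the 10 lymphocyte markers did (sums 0.93 and 0.36 TPM, with Cd3e, Cd4, Cd8a and Il7r at 0). Of 8 megakaryocyte markers Gp1ba and Itga2b did (sums of the list 30.3 and 83.6 TPM, with Ppbp and Vwf at 0), and of 9 endothelial and stromal markers Vim did (sums 250.5 and 366 TPM, with Pecam1, Emcn and Cdh5 at 0).

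The cells carried RNA for Hif1a, for the partner Arnt and for 2 of the 3 prolyl hydroxylases, but not detectably for Epas1. Hif1a, Arnt, Egln1, Egln2, Vhl, Hif1an, Vegfa and Ankrd37 were at 1 TPM or more in both libraries, 8 of 10, against 20.2% of all 43346 listed genes. All 10 genes are protein-coding, whereas the listed genes include noncoding ones, and the share among protein-coding genes alone was not computed. Epas1 and Egln3 had no count in either library. The summed level of the 10 genes was 399 TPM in replicate 1 and 227 TPM in replicate 2, and Egln2 supplied 42.7% and 49.4% of it.

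**Figure D1:**
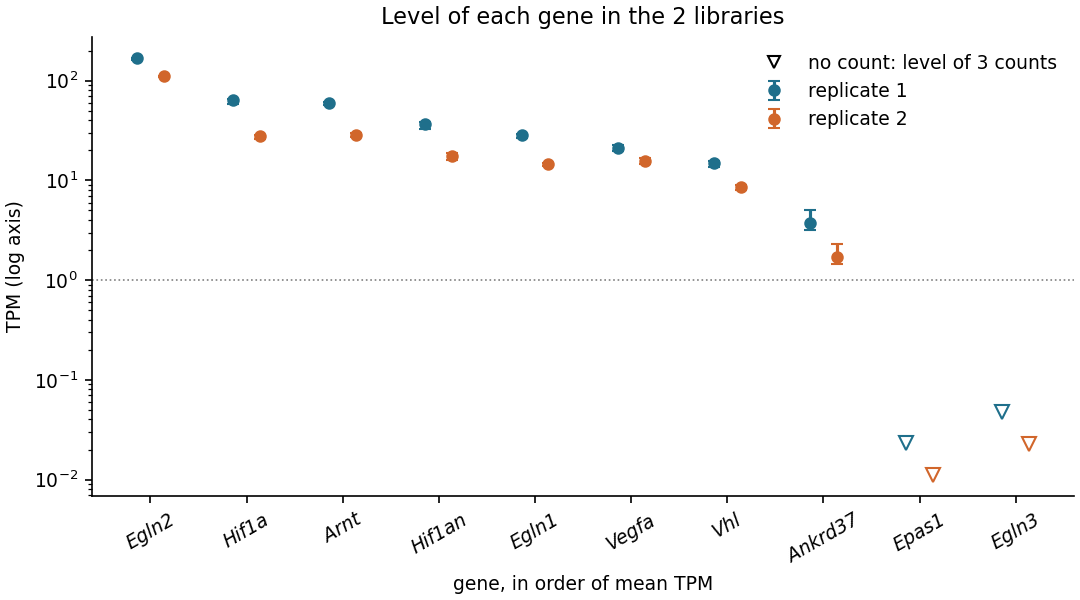
Level of each gene in TPM on a log axis, with 1 point per library and the authors' credibility interval as a bar; Epas1 and Egln3, which had no count, are drawn at the level of 3 counts. Egln2 lies at the top at 170 and 112 TPM, and each of the 8 genes with counts is higher in replicate 1.

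Hif1a (chromosome 12, 73901375 to 73947530 on GRCm38, plus strand) encodes the oxygen-regulated subunit HIF-1 alpha. Its level was 63.3 TPM in replicate 1 and 27.7 TPM in replicate 2 (45.5 ± 25.2, SD, n = 2). The intervals of the 2 libraries, 58.6 to 65.4 and 26.1 to 28.7 TPM, did not overlap. Epas1 (chromosome 17, 86753700 to 86833410, plus strand) encodes the related subunit HIF-2 alpha. With 0 counts it was below 0.0234 TPM in replicate 1 and 0.0111 TPM in replicate 2, the levels of 3 counts. Hif1a was therefore at least 2706-fold higher than Epas1 in replicate 1 and at least 2496-fold higher in replicate 2, a bound that covers counting error only. These bounds use the whole Hif1a level, most of which came from a transcript without the sites that the oxygen sensors modify, described below. The forms with those sites stood at 15.8 and 4.42 TPM.

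Arnt (chromosome 3, 95434388 to 95497240, plus strand) encodes HIF-1 beta, the partner that both alpha subunits need to bind DNA. It stood at 60.0 and 28.7 TPM (44.4 ± 22.1, SD, n = 2), again higher in replicate 1. Within a library Hif1a and Arnt could not be ordered: the log2 ratio of Hif1a to Arnt, on the log2(TPM + 1) scale, was 0.08 in replicate 1 and -0.05 in replicate 2 (mean 0.01 ± 0.09, SD).

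The 3 prolyl hydroxylase genes were at very different levels. Egln2 (chromosome 7, 27158658 to 27166802, minus strand) encodes PHD1 and was the most abundant of the 10 genes, at 170 and 112 TPM (141 ± 41.2, SD, n = 2). Its level in replicate 1 lay just above the authors' own interval of 162 to 169 TPM. Egln1 (chromosome 8, 124908587 to 124949324, minus strand) encodes PHD2, often described as the main oxygen sensor of HIF, and stood at 28.8 and 14.7 TPM (21.8 ± 9.93). Egln2 was 5.92-fold higher than Egln1 in replicate 1 and 7.61-fold higher in replicate 2, as a ratio of TPM. On the log2(TPM + 1) scale the mean ratio of Egln1 to Egln2 was -2.68 ± 0.23 (SD). Both libraries gave the same order, with a difference larger than their spread, and Egln2 made up 85.5% and 88.4% of the summed Egln level.

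Egln3 (chromosome 12, 54178981 to 54203860, minus strand) encodes PHD3, itself a well-known HIF target. It had 0 counts, below 0.0479 and 0.0228 TPM at 3 counts. Egln1 was at least 601-fold and 646-fold higher than Egln3, and Egln2 at least 3556-fold and 4917-fold higher, in replicates 1 and 2.

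Hif1an (chromosome 19, 44562850 to 44576274, plus strand) stood at 36.6 and 17.6 TPM (27.1 ± 13.4, SD, n = 2). Egln2 was 4.65-fold and 6.36-fold higher than Hif1an as a ratio of TPM, and the mean ratio on the log2(TPM + 1) scale was 2.39 ± 0.29. Most of the Hif1an level came from a transcript with no coding sequence, described below with its transcripts. Vhl (chromosome 6, 113623959 to 113631633, plus strand), the substrate receptor of the ubiquitin ligase, stood at 14.8 and 8.49 TPM (11.6 ± 4.45). Egln2 was 11.5-fold and 13.2-fold higher than Vhl, again as a ratio of TPM.

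The 2 targets on the list differed as well. Vegfa (chromosome 17, 46016993 to 46032369, minus strand) encodes the main growth factor of blood vessels and stood at 21.1 and 15.7 TPM (18.4 ± 3.83, SD, n = 2). Ankrd37 (chromosome 8, 45996902 to 46005707, minus strand) encodes an ankyrin repeat protein and is widely used as a marker of HIF activity. It stood at 3.76 and 1.70 TPM (2.73 ± 1.46) from 72 and 67 counts, the fewest of the detected genes. Of its exon bases in GENCODE M21, 349 are shared with Lrp2bp on the other strand, which had no counts. It shares 57 with Ufsp2, also on the other strand, which had 118 and 131 counts. The Ankrd37 transcripts that the authors counted reach only to 45999867. Whether the shared bases lie within those transcripts was not tested. Whether the counting used strand is not stated, so reads in those bases cannot be told apart.

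Ordered by level, the genes ran from Egln2 through Hif1a and Arnt, Hif1an, Egln1 and Vegfa, Vhl and Ankrd37 to Epas1 and Egln3. Hif1a and Arnt, and Egln1 and Vegfa, were neighbours that changed places or did not differ beyond their spread. The log2 ratio of Egln1 to Vegfa was 0.43 in replicate 1 and -0.08 in replicate 2.

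The same 8 genes were then compared between the libraries. Counts were scaled for depth and composition with TMM factors and compared by a two-sided exact binomial test, adjusted by the Benjamini-Hochberg method over the 10635 genes with at least 20 counts in total. With 1 library a side this compares 2 libraries, not conditions, and covers counting noise only. In bulk RNA, fewer cells expressing a gene and less of its RNA per cell cannot be told apart. All 8 detected genes were higher in replicate 1. For 7 of them the difference passed an adjusted p of 0.05, where 37.2% of all tested genes passed as higher in replicate 1 and 43.1% passed as higher in replicate 2. None of the 8 passed as higher in replicate 2. Since 3961 and 4589 genes passed, a difference beyond counting noise was common in these libraries.

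Hif1a differed most. Its 3706 counts in replicate 1 came from the shallower library and its 3020 in replicate 2 from the deeper one, and after scaling it was 2.02-fold higher in replicate 1 (log2 1.02, exact binomial test, adjusted p = 1.77e-181). It was the only one of the 8 to reach a 2-fold difference, which 7.31% of tested genes reached as higher in replicate 1 and 19.4% as higher in replicate 2. Ankrd37 followed at 1.74-fold (adjusted p = 0.00147) and Egln1 at 1.53-fold. Vhl at 1.37-fold and Arnt at 1.36-fold were close to each other.

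Egln2 and Vegfa moved least among those that passed, at 1.19-fold and 1.17-fold (exact binomial test, adjusted p = 2.83e-33 and 2.65e-05). Hif1an was 1.04-fold higher in replicate 1 and did not pass (809 and 1279 counts, adjusted p = 0.396), although its TPM value was 36.6 against 17.6. The effective length the authors used for Hif1an was 890 bases in replicate 1 and 1384 in replicate 2, so equal counts gave unequal TPM values. Unequal length was not the whole difference between the scales. Egln1, with 3379 and 3363 bases, also had a higher log2 ratio in TPM (0.97) than in scaled counts (0.61). With library totals in place of TMM factors Hif1an passed (log2 0.23, exact binomial test, adjusted p = 0.000534).

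The median log2 difference of the 8 genes was 0.45 in scaled counts and 1.01 in TPM. Over all 10635 tested genes the median was -0.06 in scaled counts, with quartiles of -0.76 and 0.49. Over the 8777 genes at 1 TPM or more in both libraries the median was 0.32 in TPM, and 62.9% of them were higher in replicate 1. The direction was the same on both scales in all 8 genes, but the number at least 2-fold apart was 3 in TPM with a pseudocount of 1. The share of all genes at that limit in TPM was not computed, so the 3 cannot be set against it. Of the 14 erythroid markers, 6 passed as higher in replicate 1 and 8 as higher in replicate 2. The globins Hbb-bs and Hba-a1 together stood at 1012 and 16090 TPM, and the other 12 markers at 5507 and 4126 TPM. Those 12 did not move together. Zfpm1, the most abundant of them, stood at 2427 and 1438 TPM, while Gata1 stood at 190 and 799 TPM. The part of these markers in the differences was not tested.

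**Figure D2:**
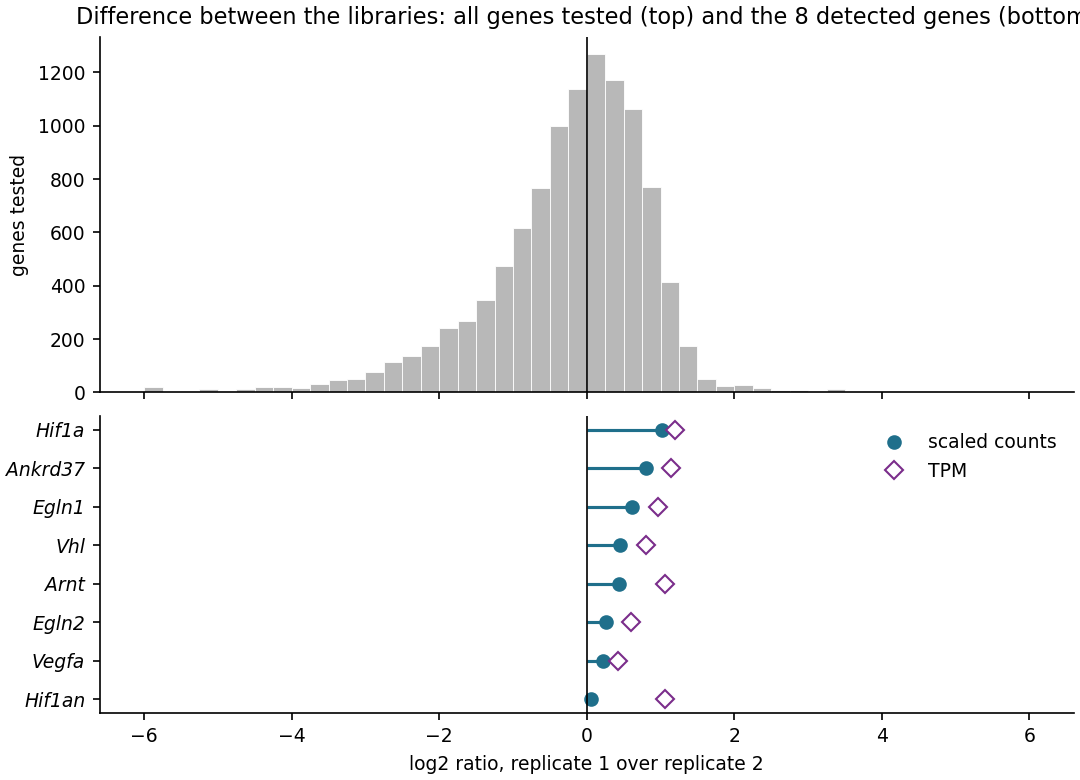
Log2 ratio of replicate 1 to replicate 2 for the 8 detected genes, in scaled counts and in TPM, below a histogram of the scaled-count ratio over 10635 tested genes, in which ratios beyond 6 are drawn in the end bars. All 8 genes lie above 0 on both scales, from 0.06 (Hif1an) to 1.02 (Hif1a) in scaled counts.

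Transcripts were examined next, because several of these genes make products with different functions from 1 locus. A share is the percentage of a gene's TPM that the authors assigned to a transcript. Of the 7 detected genes with at least 2 annotated transcripts, 6 had the same leading transcript in both libraries and 1, Arnt, did not. Over all 6389 such genes 26.9% had different leading transcripts. The 6 became 5 by the authors' posterior mean share, where Ankrd37 changed its lead. By expected count it was also 5, and there Hif1an changed. The shares rest on the authors' division of reads among overlapping transcripts.

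For Hif1a the leading transcript was not the one that encodes full-length HIF-1 alpha. Hif1a-201 has 15 exons, 4724 bases and 836 codons, and Hif1a-203 has 6 exons, 1759 bases and 258 codons. Hif1a-203 shares 1159 bases with Hif1a-201 and ends with 600 bases that lie in intron 6 of Hif1a-201. The sequences on each side of the point where they part are shown, with shared exon 6 in lower case and what follows it in capitals (chr12, plus strand, starting at 73932457).
Hif1a-201: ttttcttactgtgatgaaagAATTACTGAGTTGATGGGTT
Hif1a-203: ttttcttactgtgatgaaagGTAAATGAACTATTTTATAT
In Hif1a-201 the capitals are exon 7, and in Hif1a-203 they are the first bases of the intron, which open with the GT of a splice donor.

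Hif1a-203 held 75.1% of the Hif1a level in replicate 1 and 84.1% in replicate 2, and Hif1a-201 held 24.9% and 15.9%. In TPM this was 47.5 and 23.3 for Hif1a-203 against 15.7 and 4.42 for Hif1a-201. Both transcripts were higher in replicate 1, and the intervals of Hif1a-201, 13.8 to 16.8 and 3.90 to 4.84 TPM, did not overlap. Counted in reads rather than TPM, Hif1a-203 held 51.6% and 65.0%, since it is the shorter transcript. The tables do not tell reads of a finished Hif1a-203 from reads of unspliced Hif1a RNA in that intron, and this was not tested.

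The sites that the oxygen sensors modify lie beyond the end of Hif1a-203. They are shown for Hif1a-201 with the codon of the modified residue in capitals, proline 402 in exon 9 (chr12:73939689-73939718), proline 577 in exon 12 (chr12:73941976-73942005) and asparagine 813 in exon 15 (chr12:73945614-73945643).
Proline codon 402: ctcactctgctggctCCAgctgccggcgac
Proline codon 577: ttggagatgctggctCCCtatatcccaatg
Asparagine codon 813: tacgattgtgaagttAATgctcccatacaa
The prolines are those that EGLN enzymes hydroxylate and VHL recognises, each within the letters for leucine, alanine and proline, and the asparagine is the HIF1AN site. Hif1a-203, with 258 codons, holds none of the 3. Hif1a-202, with 810 codons, holds all 3 kinds of site as well and had 0.02 and 0 TPM. Together the forms with all 3 sites stood at 15.8 and 4.42 TPM.

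Arnt had a different leading transcript in each library. Arnt-203 has 22 exons and 791 codons, and Arnt-202 has 21 exons, 776 codons and a longer last exon. Arnt-203 includes a short alternative exon of 45 bases, exon 5 (chr3:95466793-95466837, plus strand), that Arnt-202 skips.
Arnt exon 5: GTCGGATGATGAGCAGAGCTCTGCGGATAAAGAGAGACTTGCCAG
Arnt-203 held 82.9% of the Arnt level in replicate 1 and 30.8% in replicate 2. Arnt-202 held 10.9% and 52.1%. In TPM, Arnt-203 was at 49.7 and 8.86, while Arnt-202 was at 6.56 and 14.97, so the 2 forms differed between the libraries in opposite directions.

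Grouped by the exon, the transcripts that include it held 83.0% and 32.6%, and those that span the position and skip it held 16.9% and 64.0%. Grouped by the end of the gene, the transcripts with the long last exon held 16.2% and 55.8%. Arnt-202 has 1673 bases that Arnt-203 lacks, and Arnt-203 has 47 that Arnt-202 lacks. Use of the exon and length of the last exon therefore cannot be told apart from these shares. Arnt-205, with 760 codons, held 5.28% and 3.63%, and 5 retained intron transcripts together held 0.91% and 10.1%.

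Hif1an was led in both libraries by Hif1an-202, annotated as a retained intron with no coding sequence, which 7.5% of 6227 protein-coding genes with several transcripts also showed. Hif1an-202 has 2 exons and 868 bases, of which 412 are not in Hif1an-201. Hif1an-201 has 8 exons, 6194 bases and 349 codons and encodes the hydroxylase. The point where they part is shown, with the shared end of exon 2 in lower case (chr19, plus strand, starting at 44563521).
Hif1an-201: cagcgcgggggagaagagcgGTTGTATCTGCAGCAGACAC
Hif1an-202: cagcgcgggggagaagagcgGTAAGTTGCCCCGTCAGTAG
The capitals are exon 3 in Hif1an-201 and intron 2 in Hif1an-202, which again opens with GT.

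Hif1an-202 held 97.0% of the Hif1an level in replicate 1 and 87.5% in replicate 2. The coding Hif1an-201 held 2.98% and 12.5%, or 1.09 TPM (interval 0.897 to 1.25) and 2.21 TPM (interval 2.01 to 2.36). The coding transcript was thus lower in replicate 1 in TPM, while the gene as a whole was higher there in TPM and did not pass in scaled counts. In reads the split was less uneven, since Hif1an-201 took 164 of 809 counts in replicate 1 and 700 of 1279 in replicate 2, where it held more reads than Hif1an-202 (579).

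**Figure D3:**
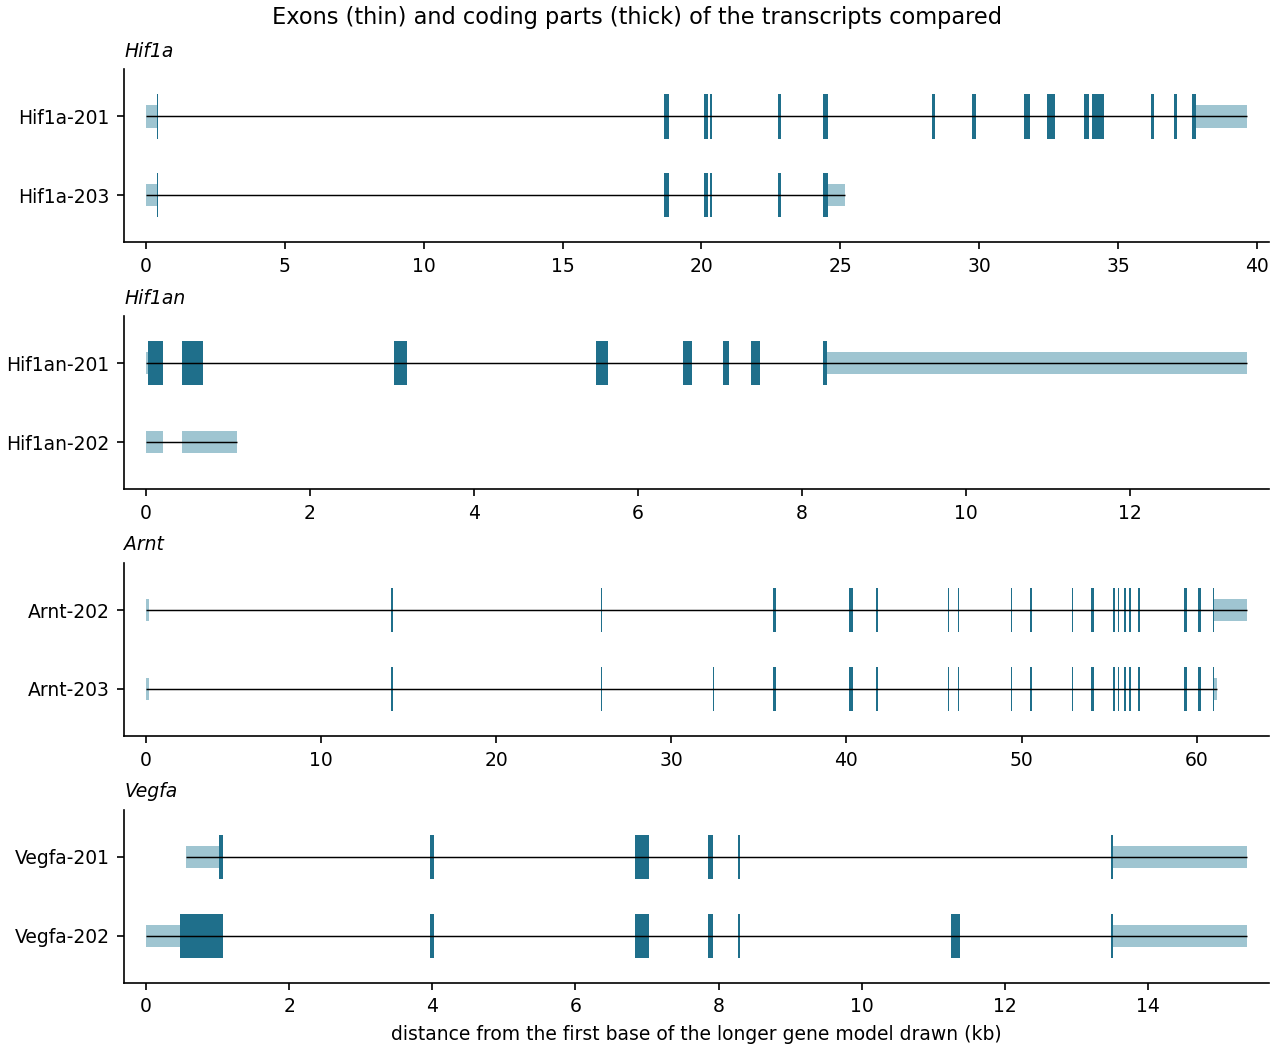
Coding parts (thick boxes), other exon parts (thin boxes) and introns (lines) of the 2 leading transcripts of Hif1a, Arnt and Hif1an and of Vegfa-201 and Vegfa-202, by distance in kb from the first base of the longer model drawn for each gene. Hif1a-203 and Hif1an-202 end inside an intron of the longer transcript, and their shares were 75.1% and 97.0% in replicate 1.

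Vegfa transcripts differ in whether they include a 132-base exon (chr17:46020991-46021122, minus strand) of the part that binds heparin, which bears on how freely the growth factor diffuses. Vegfa-201 joins exon 5 directly to the last exon and Vegfa-202 joins it to the 132-base exon, as the letters at the junction show, with the end of exon 5 in lower case.
Vegfa-201: aacaaagccagaaaaATGTGACAAGCCAAG
Vegfa-202: aacaaagccagaaaaTCACTGTGAGCCTTG
The whole 132-base exon reads as follows, on the gene's strand.
Vegfa 132-base exon: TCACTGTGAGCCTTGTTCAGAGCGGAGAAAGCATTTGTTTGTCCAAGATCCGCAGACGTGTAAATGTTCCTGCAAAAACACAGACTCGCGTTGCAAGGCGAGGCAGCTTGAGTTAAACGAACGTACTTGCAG
Vegfa-201, of the short diffusible kind, led in both libraries with 79.8% and 68.7% (16.8 and 10.8 TPM). Vegfa-202 held 4.68% and 12.6%.

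Coding Vegfa transcripts without the 132-base exon together held 89.6% and 69.6%, and those with it 4.68% and 12.6%. Vegfa-202 has 686 bases that Vegfa-201 lacks, which include a longer first exon beside the 132-base exon. Use of the 132-base exon and of the longer first exon therefore cannot be told apart from these shares. The interval of Vegfa-202 was 0.124 to 2.56 TPM in replicate 1 and 1.35 to 2.26 TPM in replicate 2, so its level was not distinguishable between the libraries. Retained intron transcripts of Vegfa held 5.76% and 17.8%.

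The remaining genes were simpler or could not be resolved. One Egln2 transcript held 92.3% and 97.1% of its gene, and another, which starts at a different first exon and encodes the same 419 codons, held 7.74% and 1.85%. A single transcript of Egln1, with 400 codons, and a single one of Vhl, with 181, held 100% of their genes in both libraries. Ankrd37 was split between a coding transcript (54.5% and 50.5%) and one annotated for nonsense-mediated decay (45.5% and 49.5%). The intervals of these 2 overlapped in each library, so they could not be ordered.

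**Figure D4:**
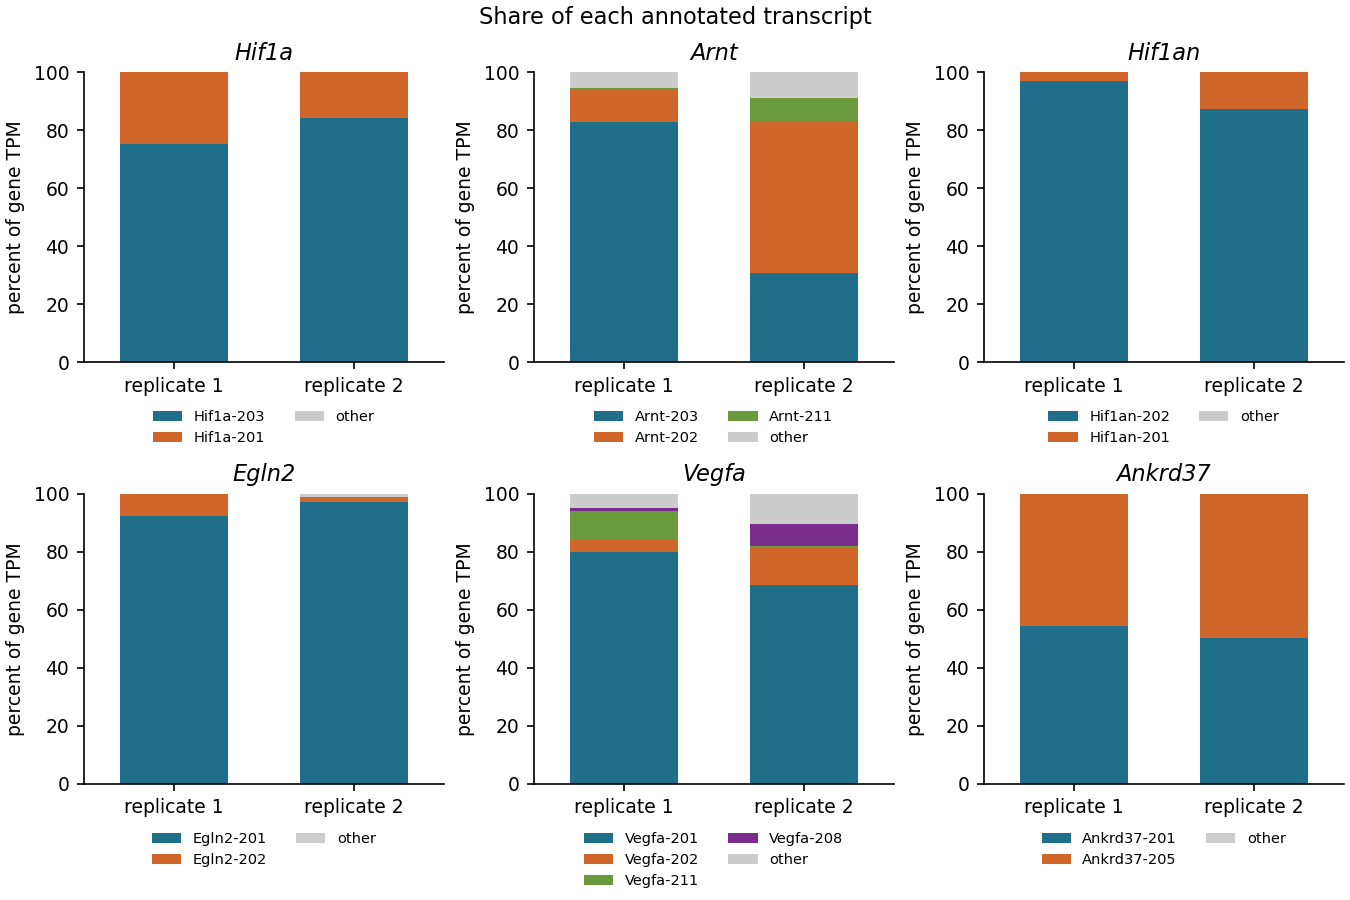
Share of the gene's TPM, in percent, held by the annotated transcripts of Hif1a, Arnt, Hif1an, Egln2, Vegfa and Ankrd37, as 1 stacked bar per library, with grey for all others. Arnt shows the change of lead, with Arnt-203 at 82.9% in replicate 1 and 30.8% in replicate 2.

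HIF dimers bind DNA at the core letters ACGTG or GCGTG. These were searched on both strands in RefSeq promoter windows (GRCm38.p6), from 250 bases before to 50 after each annotated start. Such windows were found for 9 of the 10 genes, 11 windows in all, and ACGTG was in 6, GCGTG in 6 and either in 8. Over all 32851 windows 19.6% held ACGTG, 32.4% GCGTG and 43.8% either. No binding was measured here, and a match only describes the letters.

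A stretch is shown for 2 targets that differed in level, Ankrd37 (chr8:45999851-46000100, minus strand) and Egln3 (chr12:54204079-54204123, minus strand), with ACGTG in capitals.
Ankrd37 promoter: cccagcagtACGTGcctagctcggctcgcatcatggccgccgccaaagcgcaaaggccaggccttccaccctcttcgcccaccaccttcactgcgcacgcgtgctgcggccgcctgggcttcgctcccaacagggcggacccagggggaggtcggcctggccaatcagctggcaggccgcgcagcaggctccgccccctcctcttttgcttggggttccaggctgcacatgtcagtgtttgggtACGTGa
Egln3 promoter: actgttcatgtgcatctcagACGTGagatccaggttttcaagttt
Ankrd37 held 2 ACGTG and 2 GCGTG, and Egln3, which had no count, held 1 ACGTG. The Hif1a window held 3 ACGTG matches, 2 of which are the 2 strands of 1 palindrome (CACGTG), and the windows of Vhl and Hif1an held none of either. The 2 Vegfa windows differed, with no match in one and 1 of each in the other. Of the 2 windows of Egln2, the most abundant gene, 1 held 3 of each, with CACGTG again matched on both strands, and the other 1 GCGTG. Egln1 held 1 of each and Arnt 1 GCGTG. A link between matches and level was not tested.

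Other genes of the pathway were taken from 7 lists, in which 104 of 105 names were matched. Of these, 67 were at 1 TPM or more in both libraries. Each count of genes at 1 TPM or more on the lists stands against 20.2% of all 43346 listed genes, noncoding genes included. Among the 73 that could be tested between the libraries, 25 were higher in replicate 1 and 39 in replicate 2, with a median log2 ratio of -0.28 against -0.06 over all tested genes. All calls on the lists use scaled counts, and each count of calls stands against the 37.2% and 43.1% of all tested genes that passed as higher in replicates 1 and 2. The 8 detected genes above had a median of 0.45.

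Of 15 other factors of the bHLH-PAS family of HIF, 4 reached 1 TPM in both libraries, against 20.2% of all listed genes. Another 9 had no count (Ahr, Ahrr, Arntl2, Npas1, Npas2, Npas3, Npas4, Sim1 and Sim2). These zeros were not equally firm: the authors' posterior mean was 0.58 and 0.31 TPM for Arntl2, against 0.01 and 0 TPM for Sim1. Arnt2, the other possible HIF partner of this type, had 1 count. Of the 5 tested, 2 were higher in each library. Hif3a, another alpha subunit, some forms of which oppose HIF, was at 50.8 and 51.8 TPM, so it was the only alpha subunit gene beside Hif1a with appreciable RNA. Per2 followed at 7.23 and 9.96 TPM and Per1 at 9.14 and 6.53 TPM.

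The ubiquitin ligase that VHL joins was fully represented, with 6 of 6 genes at 1 TPM or more in both libraries. Of the 6, 2 were higher in replicate 1 and 3 in replicate 2. Ube2m, which loads NEDD8, stood at 809 and 547 TPM, and the scaffold Cul2 at 47.2 and 22.7 TPM. Elob, the adaptor elongin B, stood at 38.5 and 987 TPM, Nedd8 at 52.0 and 173 TPM, and the RING subunit Rbx1 at 2.76 and 26.9 TPM, each at least 4-fold higher in replicate 2 in scaled counts. Eloc, the adaptor elongin C, stood at 57.7 and 41.5 TPM and did not pass.

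Of 17 coactivators and regulators 16 reached 1 TPM in both libraries, with 7 higher in replicate 1 and 8 in replicate 2. Rack1, which can direct HIF-1 alpha to destruction without oxygen sensing, stood at 219 and 3485 TPM. Cited4, of the family that competes for the coactivators, stood at 1339 and 784 TPM, and Hsp90ab1, a chaperone of HIF-1 alpha, at 353 and 604 TPM. Usp20, a deubiquitinase, stood at 2.00 and 5.57 TPM and was likewise at least 4-fold higher in replicate 2. Rwdd3 was the lowest of the list, at 0.39 and 1.12 TPM.

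Glycolytic targets of HIF were mostly expressed and mostly higher in replicate 2. Of 20 genes 17 reached 1 TPM in both libraries, and of 19 tested 15 were higher in replicate 2 and 2, Pdk1 and Pgk1, in replicate 1. The median log2 ratio was -1.61, and 10 of the 19 were at least 2-fold higher in replicate 2. Gapdh stood at 956 and 21738 TPM, Tpi1 at 56.6 and 1565 TPM, Gpi1 at 179 and 1573 TPM and Eno1 at 122 and 1030 TPM. All 4 encode enzymes of glycolysis. Over all tested genes 43.1% passed as higher in replicate 2, and 19.4% were at least 2-fold higher there.

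Further genes of that list were also higher in replicate 2. Aldoa stood at 1570 and 3713 TPM, Ldha, which makes lactate, at 1217 and 2778 TPM, and Pkm at 309 and 1292 TPM. Pfkp stood at 4.22 and 46.9 TPM and Aldoc at 0.40 and 5.48 TPM. Pfkfb3 had no count, but this zero was not firm: the authors' posterior mean was 0.85 and 0.42 TPM. Pdk1, which holds pyruvate back from the mitochondria, and Pgk1, a glycolytic kinase, were the exceptions. Pdk1 (122 and 57.3 TPM) and Pgk1 (37.9 and 24.8 TPM) differed in scaled counts by log2 0.45 and 0.26.

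Of 29 other targets 16 reached 1 TPM in both libraries and 8 had no count: P4ha2, Adm, Car9, Car12, Epo, Lox, Rora and Cxcr4. Among these, Epo encodes erythropoietin and Car9 a carbonic anhydrase often used as a hypoxia marker. The zeros were not equally firm: the authors' posterior mean was 1.23 and 0.63 TPM for P4ha2 and 0.74 and 0.38 TPM for Car9, against 0.02 and 0.01 TPM for Lox. Of 18 tested, 7 were higher in replicate 1 and 9 in replicate 2. Mif stood at 1972 and 3730 TPM, Higd1a at 106 and 105 TPM, and Tfrc, the transferrin receptor that erythroid cells also express for their own iron uptake, at 86.5 and 20.6 TPM.

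Of 9 further genes of the VEGF family and its receptors, Vegfb alone reached 1 TPM in both libraries, at 202.1 and 137 TPM, against 21.1 and 15.7 TPM for Vegfa. Flt1 (0.02 and 0.19 TPM), Kdr (0.05 and 0 TPM), Nrp2 (0.05 and 0 TPM), Flt4 (0.01 TPM in both) and Nrp1 (0.01 and 0 TPM) encode receptors and were near 0. Pgf, Vegfc and Vegfd had no count. Of this family the cells thus carried RNA for Vegfa and Vegfb, while no receptor gene reached 1 TPM.

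Other oxygenases that need oxygen were widely expressed, with 7 of 8 at 1 TPM or more in both libraries. Asph, an aspartyl hydroxylase, stood at 435 and 295 TPM and the histone demethylase Kdm5c at 109 and 67.8 TPM. Ado stood at 48.3 and 23.1 TPM, Tet3 at 27.4 and 33.2 TPM, Kdm6a at 25.3 and 12.2 TPM, Kdm5a at 24.9 and 24.8 TPM and Tet2 at 1.59 and 1.34 TPM. Tet1 had no count. Of the 7 tested in scaled counts, 4 were higher in replicate 1 and 2 in replicate 2. Kdm5c was among the latter in scaled counts (log2 -0.19), although its TPM value was higher in replicate 1.

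**Figure D5:**
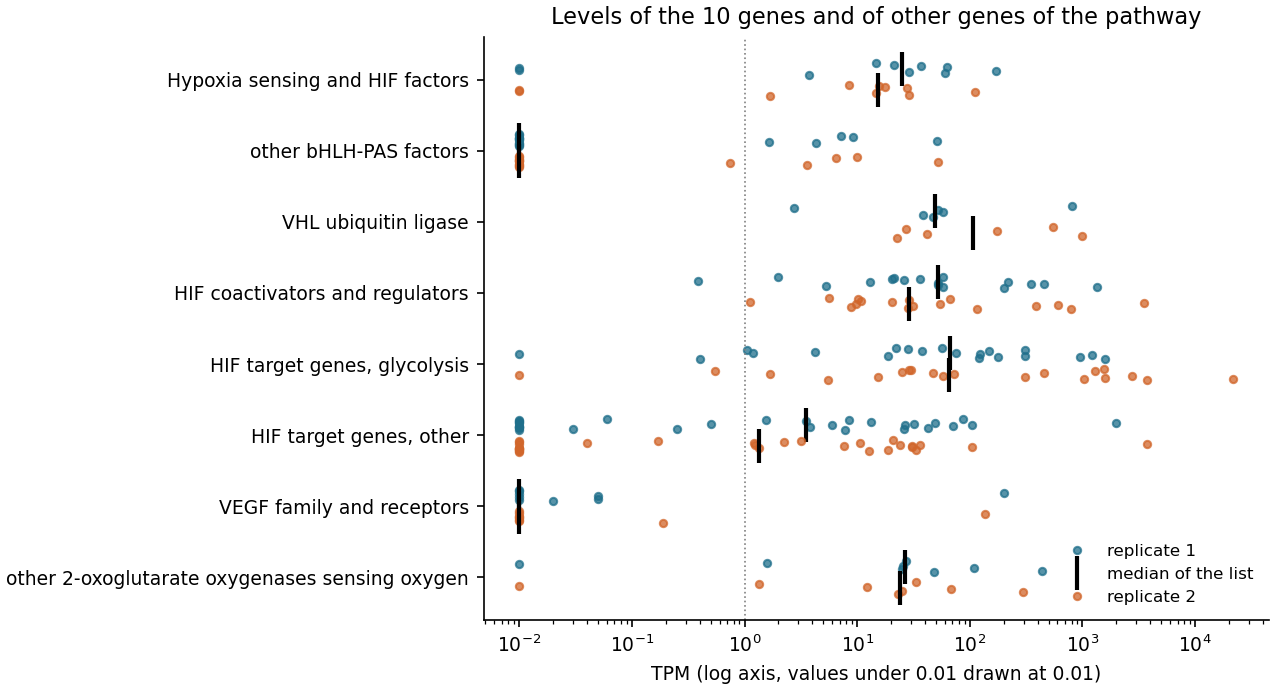
Level of each gene in TPM on a log axis, by list, with 1 point per gene and library, a black bar for the median of a list in a library, and values under 0.01 drawn at 0.01. The 10 genes in the top row have medians of 24.9 and 15.2 TPM, and the highest point is Gapdh in replicate 2 at 21738 TPM, in the row of glycolytic targets.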

How the data were processed

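RNA-seq of 2 libraries of G1E-ER4 cells was quantified by the authors against mm10 with GENCODE M4, per the submitters' processing notes, in 1 gene table and 1 transcript table per library. The deposited values are expected counts, TPM, FPKM, posterior mean counts and TPM, a transcript's share of its gene in percent, and credibility bounds, per the file headers. Neither aligner nor quantifier is named (not given in the sources used here). Gene expected counts, rounded to whole numbers, were scaled by TMM (edgeR 4.0.16, R 4.3.3) and compared by a two-sided exact binomial test (scipy 1.17.1) over genes with a summed count of at least 20, at an adjusted p of 0.05 after Benjamini-Hochberg adjustment; ratios used a prior count of 2. A quasi-likelihood test (edgeR) could not be fitted with 1 library a side, which leaves no residual degrees of freedom. Ratios between genes used a TPM pseudocount of 1, and an exact permutation test of 2 values cannot reach 0.05. The binomial test was run on simulated counts that held set folds and counting noise only, without TMM scaling. Other variation between libraries was not simulated. DESeq2 1.42.0 size factors, total counts, other pseudocounts, FPKM, posterior means and other detection limits were the alternatives. Gene positions, transcript types, exons and sequences come from GENCODE M21 (GRCm38); 41 of the 44 transcripts have the same length there as in the deposited tables, and 1 each of Egln1, Epas1 and Vegfa do not. Promoters come from RefSeq. Named were all 10 genes, their transcripts with at least 10% of the gene in a library or a product of known name, and, of each list, the 3 highest and the lowest genes, those at least 4-fold apart and, in lists of up to 10, all. Pdk1, Pgk1, Arnt2 and the genes without counts in longer lists were named after their values were seen. The members and lists were chosen with earlier results of these data known. Intervals and 3-count levels cover counting error only.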

Additional observations from a re-analysis of the deposited data

How the results depend on the processing

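Of 136 alternative values, leaving out those with 1 library removed, 119 stayed within the limit set for their kind: the same direction and side of the threshold for a tested difference, within 1.5 times for a count or for an untested ratio between the libraries, or within 1 SD for a level, a share or a ratio between genes. Another 16 moved by more and 1 passed the threshold where the reported value had not. No value that passed a test changed its direction. The median log2 ratio of the 8 detected genes between the libraries, 0.45, ranged up to 1.01 (TPM with a pseudocount of 0.1). The number of the 10 genes at least 2-fold higher in replicate 1 was 1 in scaled counts, 3 in TPM with a pseudocount of 1 and 4 in TPM with a pseudocount of 0.1. Shares of all genes at that limit in TPM were not computed. Hif1an passed with total counts in place of TMM factors (log2 0.23, exact binomial test, adjusted p = 0.000534), which raised the number passing from 7 to 8. Total counts moved the median log2 ratio of all tested genes by 0.17, to 0.11, and that of the 8 genes to 0.62, and the share of passing genes that were higher in replicate 1 from 46.3% to 55.2%. With 1 library left out at a time, the median level of the 10 genes ranged from 15.2 to 24.9 TPM around 20.1, and the number at 1 TPM or more was 8 each time. The ratio of Hif1a to Arnt, not ordered in TPM, changed sign and became ordered in expected counts not divided by length (log2 -0.47, from 0.01), and by expected count Hif1an changed its leading transcript between the libraries, an alternative chosen after seeing the data. By posterior mean share Ankrd37 did so. Leaving out a library gives no value for a comparison of 2 libraries, for leading transcripts or for ordered pairs. No paired analysis was possible because there is 1 group. Depth limits Epas1 and Egln3 to statements below 3 counts, and the 72 and 67 counts of Ankrd37 leave its transcripts unresolved.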
